A study of Mus musculus with 11 samples.

Results

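The 4 transcripts described here encode chaperones and folding factors of the endoplasmic reticulum (ER) lumen: Hspa5 (uc008jit.2), Pdia4 (uc009btf.1), Creld2 (uc007xep.1) and Sdf2l1 (uc007ykc.2). They were taken by their UCSC identifiers from a table of 63244 transcripts, of which 29599 entered the test, the 4 included. The source was hippocampal RNA bound to ribosomes in male CaMKIIα-Cre:RiboTag mice aged 2 to 3 months. In these mice Cre recombinase, driven by a CaMKIIα promoter transgene, switches on a hemagglutinin tag on the ribosomal protein Rpl22, so that the tagged ribosomes of forebrain excitatory neurons can be pulled down with their RNA. Both groups carried both alleles and were single housed and handled in advance. Sleep deprived (SD) mice were kept awake for 5 h from light onset by tapping and shaking the cage, while non-sleep deprived (NSD) mice were controls killed at the same time. There were 6 SD libraries (replicates 1, 2, 3, 4, 6 and D) and 5 NSD libraries (replicates 2, 3, 4, 5 and B), each made from the pooled hippocampi of 2 mice. A level of ribosome-associated RNA is a product of how much of the transcript there is and how much of it sits on ribosomes, and these libraries alone cannot tell the 2 apart. Fewer cells with the transcript and less of it per cell cannot be told apart either.

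Proteins that are secreted or that sit in membranes fold in the ER, where chaperones bind the unfolded chains and disulfide isomerases join their cysteines. When unfolded chains accumulate, the sensors Ire1, Perk and Atf6 start the unfolded protein response, which raises the transcription of ER chaperones and slows translation in general. Hspa5 (also called BiP) is the Hsp70 chaperone of the ER and holds those sensors inactive while it is not needed for folding. Pdia4 is a protein disulfide isomerase, Creld2 is a secreted and ER-resident protein with epidermal growth factor-like domains that is known to be induced by ER stress, and Sdf2l1 works with the Hsp40 cochaperones of Hspa5. Prolonged waking is known to engage this response in the brain.

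In mm10 with the GENCODE vM21 annotation, Hspa5 lies on the plus strand of chromosome 2 from 34771970 to 34777547 and Creld2 on the plus strand of chromosome 15 from 88819646 to 88826683. On the minus strand, Pdia4 lies on chromosome 6 from 47796141 to 47813430 and Sdf2l1 on chromosome 16 from 17130138 to 17132383. No annotated gene overlaps any of them on the other strand, and on its own strand Pdia4 overlaps the microRNA gene Mir704. Creld2 and Sdf2l1 have 1 annotated transcript each, Pdia4 has 2 and Hspa5 has 6. A read that fits several transcripts was not counted. The values of each of the 4 are therefore those of reads assigned to its UCSC transcript alone, which need not be the level of the gene. Levels are therefore compared between groups and not between the 4 genes.

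The ER stress response element (ERSE) is the site through which Atf6 and Xbp1 act on chaperone promoters. It is a CCAAT box and a CCACG core separated by 9 bases (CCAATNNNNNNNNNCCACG). The 250 bases before the RefSeq start site of each gene are shown because the 4 levels were compared for moving together. They are given 5′ to 3′ on the gene's strand (RefSeq, GRCm38.p6), and capitals mark each CCAAT box, each CCACG core and each core of the unfolded protein response element (TGACGTG) on either strand, so that an ERSE reads as CCAAT and CCACG, or CGTGG and ATTGG, with 9 bases between.
Hspa5, chr2:34771840-34772089, plus strand: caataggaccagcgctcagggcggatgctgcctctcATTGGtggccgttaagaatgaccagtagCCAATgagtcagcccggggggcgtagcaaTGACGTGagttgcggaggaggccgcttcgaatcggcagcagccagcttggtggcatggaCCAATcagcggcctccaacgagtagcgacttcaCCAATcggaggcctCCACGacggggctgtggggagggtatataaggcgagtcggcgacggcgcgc
Creld2, chr15:88819396-88819645, plus strand: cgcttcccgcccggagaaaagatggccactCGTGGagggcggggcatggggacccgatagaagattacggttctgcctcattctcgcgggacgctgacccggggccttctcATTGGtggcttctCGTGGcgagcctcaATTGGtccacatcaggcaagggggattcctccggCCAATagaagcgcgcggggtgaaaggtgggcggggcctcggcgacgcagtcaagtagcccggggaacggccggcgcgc
Pdia4, chr6:47813513-47813762, minus strand: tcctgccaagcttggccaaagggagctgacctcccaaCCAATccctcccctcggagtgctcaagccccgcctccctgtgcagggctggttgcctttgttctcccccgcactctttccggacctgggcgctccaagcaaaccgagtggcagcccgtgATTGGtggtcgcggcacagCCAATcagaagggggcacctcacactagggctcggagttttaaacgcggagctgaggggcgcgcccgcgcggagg
Sdf2l1, chr16:17132384-17132633, minus strand: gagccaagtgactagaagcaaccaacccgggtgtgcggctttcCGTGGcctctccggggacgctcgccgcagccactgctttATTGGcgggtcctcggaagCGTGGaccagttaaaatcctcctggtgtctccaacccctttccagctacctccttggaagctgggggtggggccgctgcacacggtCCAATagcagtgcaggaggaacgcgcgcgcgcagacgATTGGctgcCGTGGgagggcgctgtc

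Hspa5 has a complete ERSE, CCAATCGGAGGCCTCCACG, at positions -65 to -47 from the start site, and a TGACGTG core at -157 to -151. Part of the Hspa5 window overlaps the GENCODE gene, whose first base lies upstream of the RefSeq start site. Creld2 has an ERSE on the reverse strand at -126 to -108, which reads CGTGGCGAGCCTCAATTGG on the strand shown. In Pdia4 and Sdf2l1 the windows, which run from 250 bases before to 50 bases after the start site, held CCAAT boxes and CCACG cores but no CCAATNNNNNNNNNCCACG. The 1 CCACG of Pdia4 lies after the RefSeq start site, outside the letters shown. The GENCODE gene of Pdia4 begins downstream of the whole window, so that this CCACG lies upstream of the first GENCODE base. The bases between the window and that first base were not searched. None of the 4 windows held ERSE-II (ATTGGNCCACG) or the amino acid response element core (TGATGNAA). Among 32851 RefSeq windows of this length, 0.119% held an ERSE, 0.0365% an ERSE-II, 2.01% TGACGTG and 3.97% TGATGNAA, while 37.4% held a CCAAT box and 32.8% a CCACG core (both strands, each ERSE also counting for both of its parts). A match is a match of letters and not an observed binding site.

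The libraries held between 22074914 and 29549339 counts on transcripts. The share of reads that fell outside annotated features (the no-feature share) was between 10.9% and 27.6% in NSD and between 9.97% and 21.1% in SD libraries. It was highest in NSD 2, where 12.3% of the reads also did not align to a single place, and next highest in SD 1, NSD 4 and SD 3. The same 4 libraries had the largest upper-quartile factors, between 1.07 and 1.19, whereas those of the other libraries lay between 0.892 and 0.994. This factor scales each library so that the upper quartile of its transcript counts is level with the others, and a large factor lowers every value of its library. Of 4 excitatory neuron markers 2 could be read by name. Neurod2 was at 301.9 to 386.4 CPM in NSD and 282.8 to 451.9 CPM in SD libraries, where CPM is counts per 1000000 after that scaling. Camk2a was read from 1 transcript alone (uc008fbh.2), at 2.51 ± 0.167 CPM for NSD (SD, n = 5) against 1.89 ± 0.340 CPM for SD (SD, n = 6). Inhibitory neuron markers were present, with a lower mean in SD that did not pass the test: Gad2 (uc008ink.1), which makes GABA, was at 53.9 ± 30.01 CPM in the NSD libraries (SD, n = 5) and 20.6 ± 10.96 CPM in the SD libraries (SD, n = 6). Of the 7 inhibitory markers 2 had a named transcript, Gad2 and Slc32a1, and their 4 transcripts were all lower in SD, with log2 fold changes between -1.90 and -0.64 (smallest FDR 0.176, edgeR). Gad2 (uc008ink.1) ran from 20.4 to 92.2 CPM in NSD libraries, highest in NSD B and NSD 4, and from 13.5 to 42.7 CPM in SD libraries, highest in SD 2. No named transcript stood for astrocytes, microglia or endothelium, and the oligodendrocyte marker Mbp was at 180.3 ± 12.4 CPM in NSD (SD, n = 5) and 208.5 ± 19.6 CPM in SD libraries (SD, n = 6).

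All 4 chaperone transcripts had a higher mean in the SD than in the NSD libraries, by factors between 1.34 and 1.51. Creld2 was the one past FDR 0.05 in the edgeR quasi-likelihood test over all transcripts, in which 13 transcripts of 29599 (0.0439%) were called higher in SD. For Creld2, Sdf2l1 and Pdia4 each of the 6 SD libraries lay above each of the 5 NSD libraries, which was so for 0.459% of the transcripts tested. Ranked by p among those tested, Creld2 was at 15, Sdf2l1 at 16, Pdia4 at 46 and Hspa5 at 143. The 4 were chosen with earlier results of these data known. Their ranks and the permutation p given below are therefore a description and not independent evidence.

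**Figure D1:**
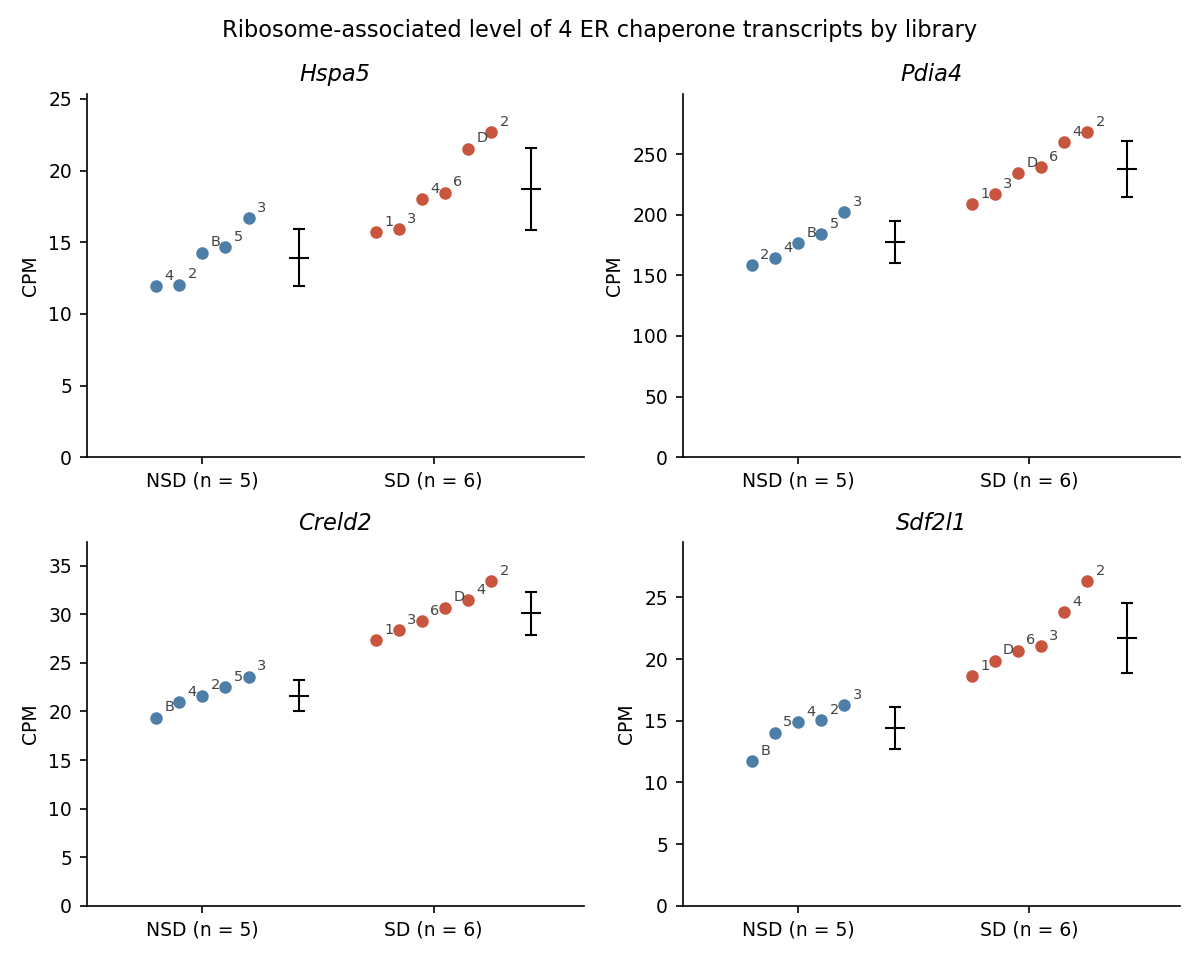
Level of the 4 transcripts in CPM (y axes, each from 0) in each NSD and SD library (x axes). Each point is 1 library labelled with its replicate, and the black bar is the mean with its SD over libraries. Creld2, Sdf2l1 and Pdia4 do not overlap between the groups, whereas 2 SD libraries of Hspa5, SD 1 and SD 3, lie below NSD 3.

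Hspa5 was at 12.0 CPM in NSD 2, 16.7 in NSD 3, 11.9 in NSD 4, 14.7 in NSD 5 and 14.3 in NSD B. In SD libraries it ran from 15.7 in SD 1 to 22.7 CPM in SD 2, with a median of 18.2. The groups overlapped, since NSD 3 lay above SD 1 and SD 3. The mean was 13.9 ± 1.98 CPM for NSD (SD, n = 5) against 18.7 ± 2.85 CPM for SD (SD, n = 6), and the log2 fold change was 0.43 with a standard error of 0.12. It did not pass the test across all transcripts (FDR = 0.420, edgeR), while the exact permutation test of this transcript alone gave p = 0.0130 (two-sided). Its counts, between 291 and 599 per library, carry a counting error of 4.09% to 5.86%, against a spread between libraries of 14.2% in NSD and 15.2% in SD.

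Pdia4, the member with the highest counts (3834 to 6670 per library), was at 158.7 CPM in NSD 2, 202.2 in NSD 3, 164.3 in NSD 4, 184.1 in NSD 5 and 176.8 in NSD B. The SD libraries ran from 208.8 in SD 1 to 267.8 CPM in SD 2, with a median of 236.5. The lowest SD library was therefore above the highest NSD library, by a narrow margin. The mean was 177.2 ± 17.2 CPM for NSD (SD, n = 5) against 237.7 ± 23.1 CPM for SD (SD, n = 6), and the log2 fold change was 0.42 with a standard error of 0.0956. It did not pass the test across all transcripts (FDR = 0.175, edgeR), and the two-sided exact permutation test gave p = 0.00433.

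Creld2 was at 21.6 CPM in NSD 2, 23.6 in NSD 3, 21.0 in NSD 4, 22.5 in NSD 5 and 19.4 in NSD B. In SD libraries it ran from 27.3 in SD 1 to 33.4 CPM in SD 2, with a median of 30.01. With these factors it had the smallest spread between libraries of the 4, at 7.42% in NSD and 7.39% in SD, and the groups were well apart. Creld2 rose, with a mean of 21.6 ± 1.60 CPM for NSD (SD, n = 5) against 30.1 ± 2.22 CPM for SD (SD, n = 6). The log2 fold change was 0.48 with a standard error of 0.0860 (FDR = 0.0439, edgeR). The exact permutation test gave p = 0.00216, the smallest that 5 against 6 libraries allow. The call is marginal: it was lost when any library other than SD 1 was left out, with FDR between 0.0693 and 0.237 (edgeR), and the log2 fold change stayed between 0.44 and 0.51.

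Sdf2l1 had the largest difference of the 4. It was at 15.02 CPM in NSD 2, 16.3 in NSD 3, 14.9 in NSD 4, 14.03 in NSD 5 and 11.7 in NSD B. SD libraries ran from 18.7 in SD 1 to 26.3 CPM in SD 2, with a median of 20.9. All SD libraries lay above all NSD libraries. The mean was 14.4 ± 1.70 CPM for NSD (SD, n = 5) against 21.7 ± 2.83 CPM for SD (SD, n = 6), and the log2 fold change was 0.59 with a standard error of 0.109. Its FDR of 0.0520 (edgeR) was just outside the threshold, and its exact permutation p of 0.00216 was again the smallest possible. Without SD 1 its FDR was 0.00614 and that of Pdia4 was 0.0245 (edgeR).

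The size of the change depended little on the processing, and the FDR depended on it strongly. With the edgeR filterByExpr filter on low counts, 132 of 19228 transcripts (0.686%) were called higher in SD, and all 4 chaperones were among them (FDR from 0.000929 for Pdia4 to 0.0497 for Hspa5, edgeR). With DESeq2, 93 of 15252 transcripts (0.61%) were called higher, again with all 4 (FDR from 5.05e-06 for Creld2 to 0.0432 for Hspa5, DESeq2). Over the 15 settings plotted, the log2 fold change was between 0.37 and 0.48 for Hspa5, 0.38 and 0.51 for Pdia4, 0.41 and 0.52 for Creld2, and 0.52 and 0.65 for Sdf2l1. Without NSD 4 and NSD B, in which Gad2 was highest, the log2 fold changes were 0.37, 0.39, 0.41 and 0.52 in the same order, and none of the 4 passed (smallest FDR 0.812, edgeR).

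**Figure D2:**
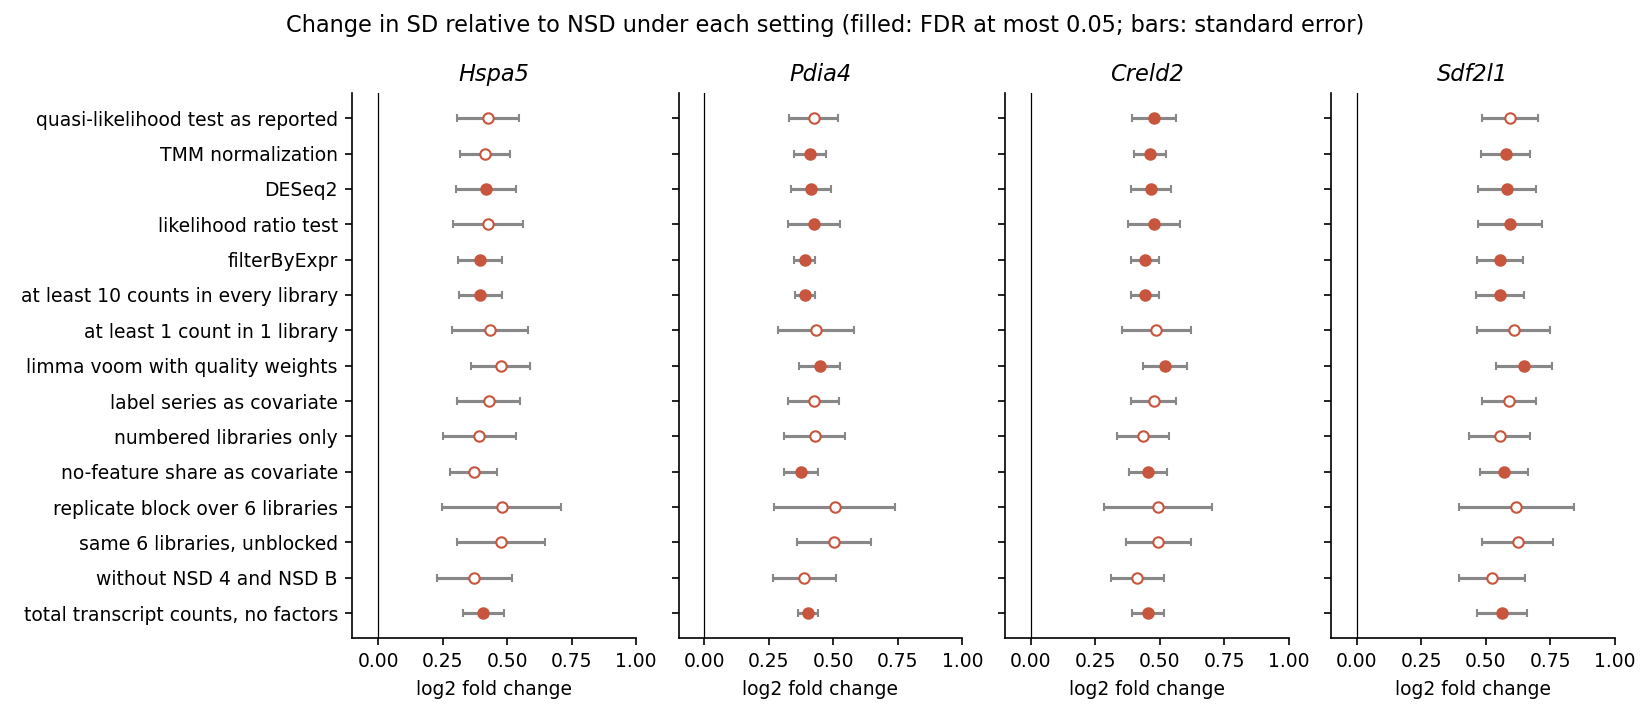
Log2 fold change of each transcript in SD relative to NSD (x axes) under 15 settings of the processing (y axis), with bars of 1 standard error. Filled points have an FDR of at most 0.05. The points stay to the right of 0 throughout and within 0.37 to 0.65.

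The spread within groups depended on how the libraries were scaled. Scaled to the total transcript counts alone, with no further factor, Pdia4 was at 178.1 ± 7.87 CPM for NSD (SD, n = 5) against 235.3 ± 9.99 CPM for SD (SD, n = 6), a spread of 4.42% and 4.25% instead of 9.70% and 9.71%. On this scale the SD libraries of Hspa5 lay between 16.1 and 20.8 and the NSD libraries between 13.2 and 15.6, so that all 4 transcripts had no overlap (1.38% of all tested transcripts had none with SD above NSD). All 4 were also called higher, as were 0.689% of all (FDR from 0.000139 for Pdia4 to 0.0266 for Hspa5, edgeR). The order of the libraries changed too: SD 1, the lowest SD library for all 4 transcripts with upper-quartile factors, was on this scale the highest for Pdia4, at 249.1 CPM, and for Creld2, at 32.6 CPM. On this scale Pdia4 and not Creld2 had the smallest spread of the 4. In NSD the spread was larger than with upper-quartile factors for Sdf2l1 (15.1% instead of 11.8%) and Creld2 (8.52% instead of 7.42%).

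The 4 transcripts were then compared with each other. In each library the log2 CPM of one was taken off that of the other, and this difference was compared between SD and NSD, which removes the scaling of a library almost entirely, the prior count of 2 leaving a small part. None of the 6 pairs differed in their change (adjusted p of at least 0.312 over 6 pairs, two-sided exact permutation test). The largest differences involved Sdf2l1: the log2 change of Hspa5 minus that of Sdf2l1 was -0.17 (95% interval from -0.48 to 0.12), that of Pdia4 minus that of Sdf2l1 was -0.17 (-0.37 to 0.029) and that of Creld2 minus that of Sdf2l1 was -0.12 (-0.26 to 0.024). With 1 library left out, the first of these was between -0.236 (without NSD 2) and -0.085 (without NSD B). The second was between -0.225 and -0.096, with the same libraries left out. The change of Hspa5 minus that of Pdia4 was -0.00039, with an interval from -0.16 to 0.17. The interval of Hspa5 and Sdf2l1 reaches past the change of Hspa5 itself, whereas those of Hspa5 and Pdia4, Creld2 and Sdf2l1, and Pdia4 and Creld2 (-0.17 to 0.065) stay below the changes of their members. None of them shows that changes were equal.

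Within groups, the 4 levels varied together in part. With the group mean taken off each library, SD 2 and NSD 3 were the highest of their group for all 4 transcripts and SD 1 the lowest of its group for all 4. Creld2 and Sdf2l1 had r = 0.86 (rho = 0.83) over the 11 libraries, Hspa5 and Pdia4 r = 0.84 (rho = 0.81), Pdia4 and Creld2 r = 0.77 (rho = 0.76), and Hspa5 and Creld2 r = 0.69 (rho = 0.71). These 4 pairs had adjusted p of 0.0128, 0.0128, 0.0244 and 0.0480 for r, and of 0.0199, 0.0199, 0.0295 and 0.0377 for rho, over 6 pairs (permutation of the libraries within groups). Pdia4 and Sdf2l1 had r = 0.58 (rho = 0.57) and adjusted permutation p = 0.0971 (0.106 for rho), and Hspa5 and Sdf2l1 r = 0.35 (rho = 0.37) and 0.321 (0.288 for rho). Hspa5 and Sdf2l1 parted in NSD 2, NSD 4 and SD 4, with less Hspa5 and more Sdf2l1 than their group, and in NSD 5, NSD B and SD D, with more Hspa5 and less Sdf2l1.

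**Figure D3:**
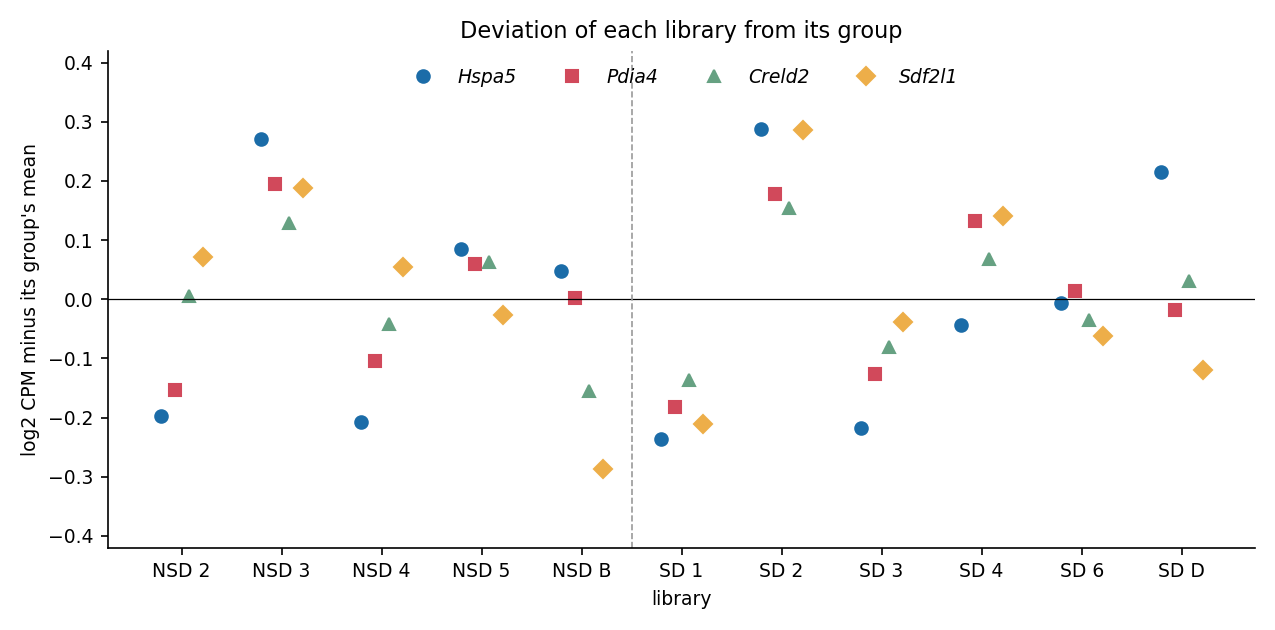
Deviation of each library (x axis) from the mean of its group in log2 CPM (y axis) for the 4 transcripts, NSD to the left of the dashed line and SD to the right. All 4 transcripts are above 0 in NSD 3 and SD 2 and below 0 in SD 1 and SD 3.

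For 3 pairs the call was lost when single libraries were left out, while r stayed at 0.58 or above. Hspa5 and Pdia4 no longer passed without NSD 3 (r = 0.79, adjusted permutation p = 0.0637), Pdia4 and Creld2 without NSD 3, SD 1 or SD 2 (r between 0.69 and 0.70), and Hspa5 and Creld2 with any 1 of 8 libraries left out (r between 0.58 and 0.70). Creld2 and Sdf2l1 passed with each library left out in turn (r between 0.80 and 0.92, adjusted permutation p of at most 0.0473). None of the 4 relations held at 0.05 without the 2 most extreme libraries, a setting that also narrows the range: without the 2 libraries farthest from the median of the first transcript, which were NSD 3 with SD 2 or SD 1 and for Creld2 and Sdf2l1 NSD B with SD 2, r was 0.64 for Creld2 and Sdf2l1, 0.69 for Hspa5 and Pdia4, 0.58 for Pdia4 and Creld2 and 0.40 for Hspa5 and Creld2, with permutation p of 0.0885, 0.0677, 0.138 and 0.307. In the 6 SD libraries alone, r was 0.95 for Pdia4 and Creld2 (adjusted p = 0.0333), 0.89 for Pdia4 and Sdf2l1 (0.0472) and 0.87 for Creld2 and Sdf2l1 (0.0472, exact permutation over 6 pairs), and the other 3 pairs had r between 0.55 and 0.86 with adjusted p of 0.0542 or more. The rho of these 3 pairs was 0.94, 0.83 and 0.77, with exact permutation p of 0.0167, 0.0583 and 0.103 before adjustment. No r was computed for the 5 NSD libraries alone.

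Covariation across these libraries was common among all transcripts. Among the 14538 other transcripts with a mean of at least 1 CPM, the median r was 0.48 with Hspa5, 0.58 with Pdia4, 0.43 with Creld2 and 0.25 with Sdf2l1. Seen from Sdf2l1, Creld2 ranked 21 of these, with 0.138% of the transcripts closer, and seen from Creld2, Sdf2l1 ranked 144, with 0.984% closer. Pdia4 ranked 300 for Hspa5, with 2.06% closer, whereas Hspa5 ranked 3287 for Pdia4, with 22.6% closer. Creld2 had 33.7% of the transcripts closer to Pdia4 and 25.8% closer to Hspa5 than itself, and from Creld2 the shares were 7.19% for Pdia4 and 18.5% for Hspa5. To the mean deviation of the 4, the closest transcripts with a name were Arhgef4 (uc007apf.1, r = 0.96), Mdga1 (uc008bto.1, r = 0.96) and Icosl (uc007fxi.1, r = 0.95) over 11 libraries, and 31.6% of all transcripts had r above 0.7. The points share their libraries and scaling factors, and no p is given for these ranks.

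With upper-quartile factors, Pdia4 moved with the no-feature share. Within groups r was -0.85 and rho -0.93 (adjusted p = 0.0147 and 0.00278 over 12 relations, permutation within groups), and r was -0.89 without NSD 2 and SD 1, the libraries with the most such reads. For Hspa5 r was -0.69 and rho -0.71 (adjusted permutation p = 0.129 and 0.104), for Creld2 -0.48 and -0.65 (0.401 and 0.171), and for Sdf2l1 -0.26 and -0.39 (0.600 and 0.441). The relation depended on the scaling: for Pdia4 r was -0.69 and rho -0.90 with TMM factors (adjusted permutation p of 0.159 and 0.00519 over 8 relations), and r was 0.071 and rho 0.15 with total counts (0.894 and 0.810). Creld2 turned from r = -0.48 to 0.68 with total counts (adjusted permutation p = 0.159; rho = 0.61, 0.187). Neither the counts on transcripts nor the level of Gad2 showed a relation past the threshold with any of the 4 (smallest adjusted permutation p of 0.271 for r and 0.304 for rho). With the mean deviation of the 4, r was 0.87 for Mbp and 0.85 for Neurod2. It was 0.34 for Slc32a1, 0.24 for Gad2 (uc008ink.1) and -0.18 for Camk2a, and 31.6% of all transcripts had r above 0.7. These marker relations were not tested. With the no-feature share taken off within groups, Creld2 and Sdf2l1 kept r = 0.87 and Pdia4 and Creld2 r = 0.78, Hspa5 and Pdia4 had r = 0.66, and Hspa5 and Creld2 r = 0.56 (adjusted permutation p of 0.0167, 0.0210, 0.0485 and 0.0901). Pdia4 and Sdf2l1, which did not pass before, then had r = 0.71 (0.0485). With TMM factors or with total counts 1 pair of the 6 passed, Creld2 and Sdf2l1, at r = 0.88 and 0.85 (adjusted permutation p of 0.0248 and 0.0255). That pair alone passed under each of the 4 scalings plotted. The other 3 pairs called before had lower r: Hspa5 and Pdia4 had 0.73 with TMM factors and 0.43 with total counts, Pdia4 and Creld2 had 0.48 and 0.54, and Hspa5 and Creld2 had 0.38 and 0.14.

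**Figure D4:**
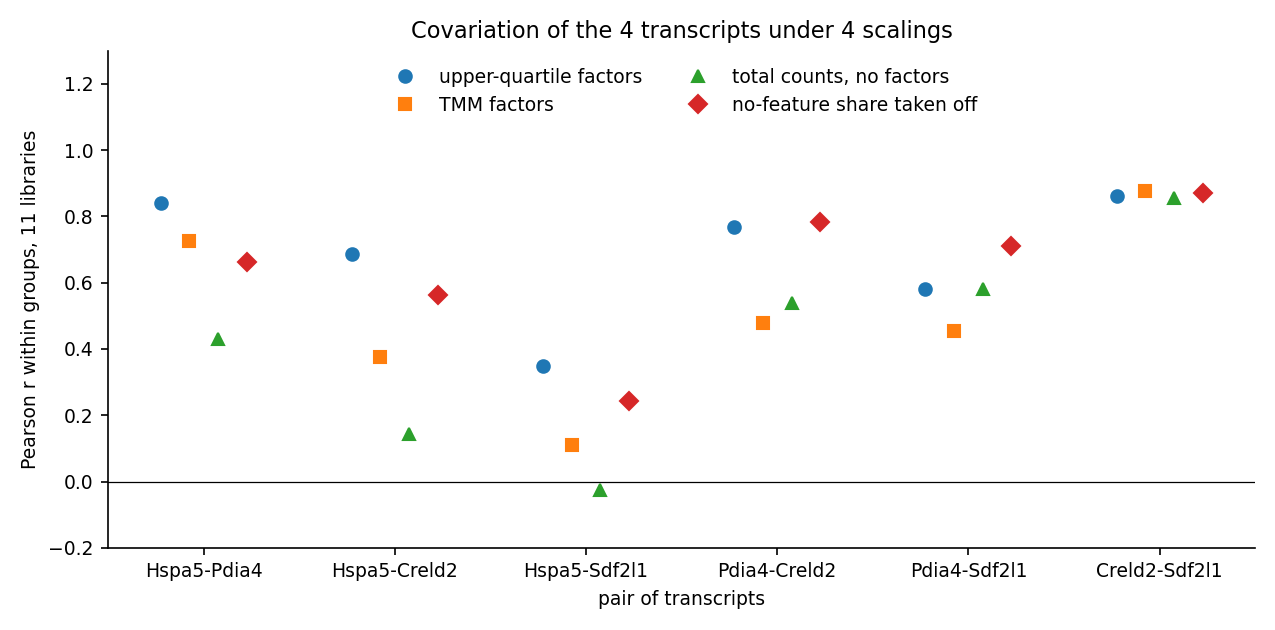
Pearson r of each pair of transcripts (x axis) over 11 libraries after the group means were taken off (y axis), with 4 ways of scaling (symbols). Creld2 and Sdf2l1 stay between 0.85 and 0.88, whereas the r of Hspa5 and Creld2 runs from 0.14 to 0.69.

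For the other genes of ER folding, names could be assigned to 11 of 30 listed genes, with 13 transcripts. The names come from supplementary lists that mostly hold transcripts with a low p in the authors' test of these same libraries. The counts are therefore a description and not evidence of a direction. All 13 transcripts had a log2 fold change above 0, as had 1161 of the 2061 named and 15380 of the 29599 tested transcripts. Their log2 fold changes lay between 0.12 and 0.49, with a median of 0.27, against 0.15 over all named transcripts and 0.0086 over all tested. None was called and none was without overlap between the groups, and 7 of 13 had an unadjusted p below 0.05 (edgeR), as did 873 of the 2061 named transcripts. The Hsp90 chaperone of the ER, Hsp90b1, had 1155.4 ± 122.6 CPM for NSD (SD, n = 5) against 1367.7 ± 145.3 CPM for SD (SD, n = 6), with a log2 fold change of 0.24. Calr, the lectin chaperone calreticulin, had 1374.0 ± 166.0 CPM (SD, n = 5) against 1676.0 ± 200.01 CPM (SD, n = 6), with 0.29. Dnajc3, an Hsp40 cochaperone of Hspa5 and an inhibitor of Perk, was at 177.6 ± 13.4 CPM (SD, n = 5) and 224.5 ± 25.0 CPM (SD, n = 6), with 0.34 (FDR = 0.426, edgeR). Manf (uc009rku.1), a secreted factor known to bind Hspa5, was at 7.85 ± 1.44 CPM (SD, n = 5) and 11.01 ± 1.25 CPM (SD, n = 6), with 0.49 (FDR = 0.328, edgeR), the largest of the list.

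Among the disulfide isomerases and oxidases of the list, Pdia3 had a log2 fold change of 0.22, Pdia6 (uc007ncp.1) of 0.34, Erp44 of 0.12 and the oxidase Ero1lb of 0.18, each below the 0.42 of Pdia4. The cochaperones Dnajb11 and Dnajc1 had 0.19 and 0.35, and Creld1, the paralog of Creld2, had 0.15. Whether these changes differ from those of the 4 was not tested. In the RefSeq windows, 6 of the 26 matched genes of this list held an ERSE, Calr, Canx, Dnajc3, Ero1b, Hsp90b1 and Pdia6, and all of these but Canx had a named transcript here. Ero1b is the current symbol of Ero1lb.

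**Figure D5:**
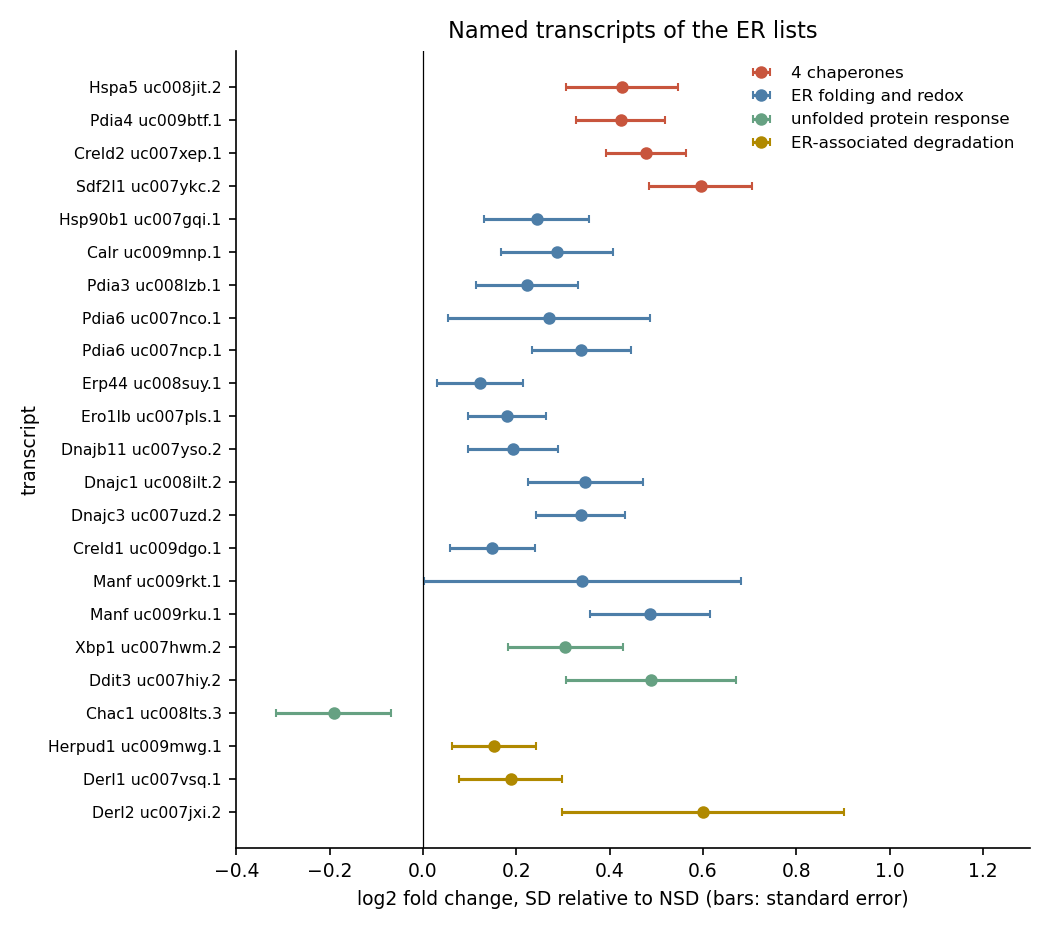
Log2 fold change in SD relative to NSD (x axis) with bars of 1 standard error for the 4 chaperone transcripts and for the named transcripts of 3 ER lists (y axis). The 4 chaperones lie between 0.42 and 0.59, the 13 ER folding transcripts between 0.12 and 0.49, and Chac1 alone lies below 0.

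Of the genes of the unfolded protein response, 3 of 10 had a name. Xbp1, the transcription factor that Ire1 activates by splicing, had 11.5 ± 1.40 CPM for NSD (SD, n = 5) against 14.2 ± 2.16 CPM for SD (SD, n = 6), with a log2 fold change of 0.31 (FDR = 0.981, edgeR), a level that does not tell spliced from unspliced RNA. Ddit3 (CHOP), a factor downstream of Perk, was at 2.43 ± 0.293 CPM (SD, n = 5) and 3.41 ± 0.774 CPM (SD, n = 6), with 0.49 (FDR = 0.908, edgeR). Chac1, a glutathione-degrading enzyme known as a target of the Atf4 and CHOP branch, was at 10.7 ± 1.32 CPM (SD, n = 5) and 9.37 ± 1.41 CPM (SD, n = 6), with -0.19 (FDR = 0.9999, edgeR). Of ER-associated degradation 3 of 10 genes had a name, with log2 fold changes of 0.15 for Herpud1, 0.19 for Derl1 and 0.60 for Derl2, whose level was below 1 CPM in every library. None of these 6 transcripts was called, and 2 had an unadjusted p below 0.05 (edgeR), a share no higher than that of all named transcripts.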

How the data were processed

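The authors trimmed the reads with Trimmomatic 0.36, aligned them to mm10 with STAR 2.7.5 and counted them with HTSeq in intersection-nonempty mode. The deposited values are raw counts per UCSC transcript in 11 libraries, not normalized, with 5 tallies of uncounted reads. Reads on more than 1 feature were tallied as ambiguous (37.2% to 52.0% of reads), and the tallies, 68.1% to 77.2% in all, were left out of totals and tests. The strand setting is not given in the sources used here. A transcript needed 1 or more counts in 5 or more libraries to be tested. The test used edgeR 4.0.16 in R 4.3.3 (upper-quartile factors, quasi-likelihood test, Benjamini-Hochberg, FDR 0.05), in place of the EDASeq scaling that the paper describes. Each chaperone was also compared by exact permutation (two-sided) of its CPM over 462 splits. Each library is 1 replicate of separate mice. Log2 CPM with a prior count of 2 was used for correlations, whose p came from 86400 orders of the libraries within groups. The 4 transcripts and the gene lists were chosen with earlier results of these data known. Other transcripts were named by matching the statistics of the supplementary lists to a refit, in which 1998 of 1998 and 128 of 128 matched. That refit used filterByExpr, TMM factors and the likelihood ratio test of edgeR, with the tallies kept in, and no EDASeq scaling. The authors' fold changes and p-values in those lists served this match alone. The genes named are the 4, the named genes of 3 ER lists and of cell type markers, and the 3 named transcripts closest to the mean of the 4. Alternatives were TMM, DESeq2 1.42.0, the likelihood ratio test, 3 filters, limma 3.58.1 voom, covariates for label series (numbered or lettered replicates) and no-feature share, a block, the numbered libraries alone and each library left out. The no-feature share taken off within groups, total counts, the no-feature relations with other scalings and the fit without NSD 4 and NSD B were added after the data were seen. The edgeR quasi-likelihood test and the exact tests were also run on simulated data with known changes, whose values are not used here. The plots used matplotlib 3.10.9 (Python 3.11.15).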

Additional observations from a re-analysis of the deposited data

Results flagged for a closer look

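A library was set apart where its gap to the nearest other library of its group, relative to the range of the group, was above Dixon's 95% critical value, which chance gives in about 1 in 20 groups. Of 60 groups tested 4 were set apart, none of them of the 4 chaperones. Chac1 was at 13.0 CPM in NSD 3, against 9.70 to 10.4 CPM in the other NSD libraries, and NSD 3 was also the highest NSD library for the 4 chaperones. In SD 2, the highest SD library for the 4 chaperones, 3 inhibitory neuron transcripts stood above the other SD libraries. Gad2 (uc008ink.1) was at 42.7 CPM, against 13.5 to 18.3 CPM, Gad2 (uc008ini.1) at 0.888 CPM, against 0.143 to 0.402 CPM, and Slc32a1 at 2.66 CPM, against 0.540 to 0.815 CPM. Within groups, Gad2 (uc008ink.1) had r of 0.39 with Hspa5, 0.34 with Pdia4, -0.010 with Creld2 and 0.012 with Sdf2l1, none past the threshold (adjusted permutation p of 0.510 or more over 12 relations). Without SD 2 the log2 fold change of each chaperone stayed above 0, and 2 of their 6 pairs varied together instead of 4.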

How the results depend on the processing

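All 4 chaperone changes kept their direction under every alternative run, and the scale, the filter and the tool decided how many transcripts passed FDR 0.05. The test as reported called 15 transcripts (13 higher and 2 lower in SD). The number was 62 with TMM, 135 with DESeq2, 65 with the likelihood ratio test, 191 with filterByExpr, 311 with at least 10 counts in every library (200 higher, 111 lower), 33 with at least 1 count in 1 library (11 higher, 22 lower), 58 with voom and quality weights, 8 with the label series as covariate, 167 with the no-feature share as covariate (85 higher, 82 lower) and 271 with total counts (204 higher, 67 lower). It was 0 in the numbered libraries alone and 0 without NSD 4 and NSD B (edgeR, with 887 and 928 transcripts at an unadjusted p below 0.05), both with fewer samples. Leaving out 1 library gave between 1 (without NSD B) and 69 (without SD 1), with 2 without NSD 4, 3 without SD D, 7 without SD 6 and 9 without SD 3.

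Hspa5 passed with log2 fold changes of 0.42 (DESeq2), 0.39 (filterByExpr), 0.40 (at least 10 counts) and 0.41 (total counts). Pdia4 and Sdf2l1 passed with TMM (0.41 and 0.58), DESeq2 (0.41 and 0.58), the likelihood ratio test (0.42 and 0.59), filterByExpr (0.39 and 0.55), at least 10 counts (0.39 and 0.55), voom (0.45 and 0.65), the no-feature covariate (0.38 and 0.57) and total counts (0.40 and 0.56). Creld2 no longer passed with at least 1 count in 1 library (0.49), the label series (0.48), the numbered libraries alone (0.43) and without NSD 4 and NSD B (0.41). With 1 library left out, the log2 fold change was between 0.37 and 0.50 for Hspa5 (FDR between 0.106 and 0.960, edgeR), 0.39 and 0.48 for Pdia4, 0.44 and 0.51 for Creld2, and 0.53 and 0.64 for Sdf2l1. Of the 6 pairs, 4 varied together as reported and 1 with TMM and 1 with total counts. With 1 library left out it was between 1 (without NSD 3) and 5, with 2 without SD 1 and 2 without SD 2. In the numbered libraries alone all 6 passed, with r = 0.69 for Hspa5 and Sdf2l1 and 0.75 for Pdia4 and Sdf2l1. No pair differed in its change under any of the 14 alternatives. The cause of these changes was not tested.

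The deviations of same-numbered libraries had r of -0.59, -0.64 and -0.71, and those of differently numbered libraries ran from -0.69 to 0.71. Since libraries of different numbers reached such values too, these r cannot tell whether libraries of the same number were paired. With a replicate block over the 6 libraries that share numbers 6 transcripts passed (4 higher, 2 lower), against 3 for the same libraries without it, and Creld2 passed in neither (log2 fold change 0.49 in both). The counting error was at most 5.97% for Sdf2l1, 5.86% for Hspa5, 4.64% for Creld2 and 1.62% for Pdia4, and for Hspa5 the spread between NSD libraries was 14.2% with upper-quartile factors and 7.13% with total counts. How far depth limits the precision was not tested.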
